A study of Homo sapiens with 2 samples.

Results

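NEAT1 and MALAT1, a pair of long non-coding RNAs that stay in the nucleus, were followed together with 7 proteins of the nuclear bodies that NEAT1 builds: NONO, SFPQ, PSPC1, RBM14, DAZAP1, TARDBP and NUDT21. These 9 genes of 57894 were picked by name, with the fall of NEAT1 in these same libraries already known, so its difference between the groups is described here and carries no p-value. They have 110 of the 197318 matched transcripts, of which 80 held reads. The series asked what loss of LARP7, the La-related protein that holds and protects 7SK RNA, does to expression and splicing in HEK293, an established human embryonic kidney cell line. Total RNA was sequenced from parental HEK293 cells (2 libraries) and from the LARP7 knockout clone 1-11 (2 libraries), with no treatment named for either group. Because all knockout RNA comes from 1 clone, the knockout and any other change carried by that clone cannot be told apart. The source field of the knockout sample reads wildtype, whereas its title and genotype field name the knockout, and the genotype was used. No label says that libraries of a group were grown separately, so every p-value measures the spread between libraries, which may be technical.

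Paraspeckles are small bodies in the space between chromatin domains, assembled on NEAT1 while it is being transcribed. NEAT1 is made in a short form, which ends by ordinary cleavage and polyadenylation, and a long form that reads through this site and forms the core of the body. The long form and MALAT1 have no poly(A) tail: RNase P cuts them in front of a tRNA-like fold, and a U-rich stretch pairs with an encoded A-rich end and shields it from decay. NONO, SFPQ and PSPC1 are the DBHS proteins, which dimerise with each other and coat NEAT1. RBM14 and DAZAP1 are RNA-binding proteins with prion-like domains that paraspeckles need, TARDBP (TDP-43) binds NEAT1 and its processing site, and NUDT21 (the CFIm25 subunit of cleavage factor I) binds UGUA and takes part in ending the short form. MALAT1 sits in the neighbouring nuclear speckles, which store splicing factors.

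The stretches at which the forms of NEAT1 and MALAT1 end are shown as 150-base windows of the GENCODE v29 transcripts NEAT1-202 and MALAT1-202 (GRCh38, plus strand). Reads of the short and long NEAT1 forms can only be told apart beyond the end of the short form. The end of the short NEAT1 form lies at chr11:65426383-65426532, inside the single exon of NEAT1, bases 3586 to 3735 of NEAT1-202; the capitals mark TGTA, the DNA spelling of the element that NUDT21 binds, and AATAAA, the poly(A) signal, which starts at base 3706. The end of the long NEAT1 form lies at chr11:65445391-65445540, the last 150 bases of NEAT1-202. The MALAT1 window lies at chr11:65505967-65506116, in its exon, and stops 353 bases before the annotated end of MALAT1-202. In both of these the capitals mark AAAAGCAAAA, the A-rich last 10 bases of NEAT1-202, and TTTTGCTTTT, their U-rich reverse complement.
Short NEAT1 form: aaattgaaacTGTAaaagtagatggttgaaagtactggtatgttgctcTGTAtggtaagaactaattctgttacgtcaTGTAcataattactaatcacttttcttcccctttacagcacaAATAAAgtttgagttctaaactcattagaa
Long NEAT1 form: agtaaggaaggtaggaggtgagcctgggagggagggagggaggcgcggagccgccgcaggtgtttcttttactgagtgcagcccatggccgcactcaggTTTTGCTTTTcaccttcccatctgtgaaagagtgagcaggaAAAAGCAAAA
MALAT1: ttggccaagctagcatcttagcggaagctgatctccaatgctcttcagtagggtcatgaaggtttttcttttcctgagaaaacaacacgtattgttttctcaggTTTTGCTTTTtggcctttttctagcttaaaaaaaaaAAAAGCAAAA
The first window holds 3 TGTA and 1 AATAAA on its own strand, and 2 further TGTA on the opposite strand. Of the last 150 bases of the longest transcript of each of 35784 protein-coding or lncRNA genes, 53.2% held AATAAA (59.2% on either strand), 8.81% held at least 3 TGTA (11.4% on either strand) and 5.98% held both (6.57%). TTTTGCTTTT was present in 73 of these ends (0.204%) and AAAAGCAAAA in 68 (0.19%), with 0.391% for each on either strand, since the pair are reverse complements of each other. Both stood together in 1 of the 35784 ends, that of NEAT1. AAAAGCAAAA was taken from that end, so its presence there was set in advance. The MALAT1 window lies inside its longest transcript and so is not among these ends. A match of letters describes the window and does not show that a factor binds there.

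Depth, as estimated reads, was 18483220 for parental replicate 1, 12851942 for parental replicate 2, 16838501 for knockout replicate 1 and 16218587 for knockout replicate 2. LARP7 RNA itself read 59.7 and 46.4 CPM (reads per library after TMM scaling, set to the same total) in parental cells. In the knockout it read 36.0 and 31.8 CPM, lower in both libraries. The log2 fold change was -0.65 (SE 0.16, edgeR adjusted p = 0.135, DESeq2 adjusted p = 0.0421). All 8 HEK293 markers read at least 1 CPM in every library, with a sum of 692 to 774 CPM, of which VIM made up 395 to 520 CPM. NEFM, another of the 8, differed between the groups, at 49.3 and 73.4 CPM in parental cells and 7.75 and 8.56 CPM in the knockout. The 4 blood, 3 endothelial and 2 hepatocyte markers stayed under 1 CPM in every library (HBB, PECAM1, CDH5 and APOB at 0), as did DCN and LUM of the 3 fibroblast markers, whose sum of 5.67 to 7.40 CPM came from COL1A1. Parental replicate 2 had the fewest reads, the shortest fragments (206.7 bases, against 217.0 to 232.9 in the others) and the largest share of TPM in transcripts under 300 bases: 55.7%, against 40.4% in parental replicate 1 and 35.1 and 39.4% in the knockout. TPM divides a fixed total, so TPM is used below to compare genes with each other, and CPM to compare libraries. In bulk RNA, fewer cells with a transcript and less of it per cell cannot be told apart.

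Per length and summed over all transcripts, MALAT1 was the highest of the 9 genes and NEAT1 the lowest in all 4 libraries. The rank of MALAT1 rests in part on its short transcripts. Its long transcript MALAT1-202 alone had 171.5 and 207.3 TPM in parental replicates 1 and 2 and 299.1 and 329.5 TPM in knockout replicates 1 and 2. SFPQ as a whole had 247.4, 156.5, 325.9 and 263.5 TPM, which is higher in replicate 1 of both groups. In parental cells the mean TPM was 351 for MALAT1, 202 for SFPQ, 165 for NONO, 95.0 for TARDBP, 49.4 for NUDT21, 33.1 for DAZAP1, 32.5 for RBM14, 15.7 for PSPC1 and 2.56 for NEAT1. In the knockout the means were 618, 295, 181, 123, 66.3, 34.4, 39.6, 23.4 and 0.312 TPM in the same order of genes. Most neighbours in this order were apart in both libraries of a group. SFPQ and NONO overlapped in parental cells (247 and 157 against 186 and 144 TPM) but not in the knockout, and DAZAP1 and RBM14 overlapped in both groups. Over protein-coding transcripts alone NONO was above SFPQ in each library, as the shares given below show. NONO, SFPQ and PSPC1, which coat NEAT1, thus had a higher TPM than NEAT1 in each library. These TPM means order the genes within a group and are not read as a difference between the groups. The ratio of means, knockout over parental, was 1.098 in TPM but 0.8515 in CPM for NONO. For DAZAP1 it was 1.039 and 0.85, and for MALAT1 1.761 and 1.236.

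NEAT1 (chromosome 11, 65422774 to 65445540, GRCh38, plus strand) was the member with the wide gap between the groups. Its level was 56.6 and 126 CPM in parental replicates 1 and 2 and 6.47 and 6.20 CPM in knockout replicates 1 and 2, from 997, 1595, 111 and 105 estimated reads. The knockout libraries lay close together and far below both parental libraries, which themselves differed 2.24-fold. The means were 91.5 ± 49.4 CPM in parental cells and 6.33 ± 0.189 CPM in the knockout (SD, n = 2), a level 14.4-fold lower. The fitted log2 fold change was -3.85 (SE 0.36); it was -4.32 without parental replicate 1 and -3.16 without parental replicate 2. On the TPM scale the values were 1.79, 3.32, 0.315 and 0.310, and the mean was 8.18-fold lower in the knockout. The 2 scales differ in the same libraries in which the share of TPM in short transcripts differs, and the part of that share in the gap was not tested. NEAT1 is 1 of the 154 genes of 18484 (0.833%) that edgeR called at an adjusted p under 0.05, a count from which nothing is read here because this difference chose it.

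**Figure D1:**
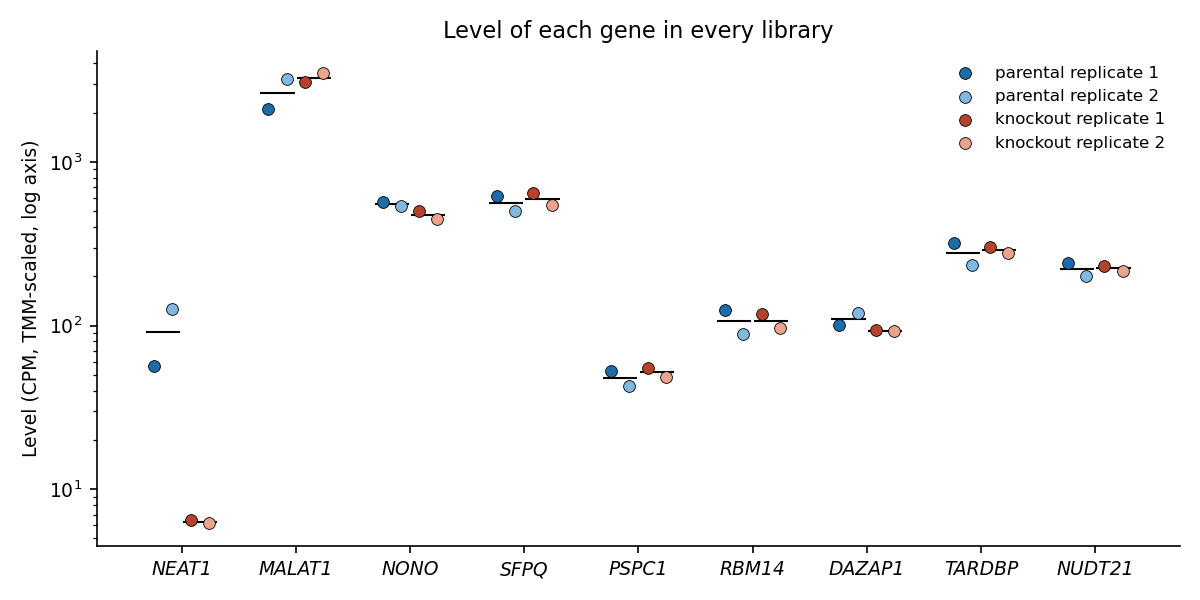
Level of the 9 genes in CPM (TMM-scaled, log axis) in each of the 4 libraries, with the group means as horizontal lines. NEAT1 sits at 56.6 and 126 CPM in parental cells and at 6.47 and 6.20 CPM in the knockout, while the 4 points of every other gene lie close together on this axis.

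The reads of NEAT1 lay on its long transcript, but this does not separate the forms. GENCODE v29 lists 8 NEAT1 transcripts, of which 5 are in the deposited tables, and of these only the 22743-base NEAT1-202 has its v29 length. The short ones are listed there with fewer bases (NEAT1-201 with 1811 of the 3441 in v29) and with 483 to 1811 bases in all, so no entry covers the whole short form. Of the 31-base words of NEAT1-201 in v29, 98.5% also occur in NEAT1-202, which means that reads of the short form fit the long transcript too. NEAT1-202 took 100%, 99.7%, 97.8% and 97.3% of NEAT1 reads in parental replicates 1 and 2 and knockout replicates 1 and 2. Spread over its length, these were 43.8, 69.9, 4.78 and 4.49 reads per kb, so the depth behind the knockout values was shallow. NEAT1-201 was the only other NEAT1 transcript with reads, at 0, 5.3, 2.4 and 2.8. Because it is short, those few reads came to 0%, 4.46%, 23.9% and 28.1% of NEAT1 TPM. Whether the short or the long form was lower in the knockout, or both, was therefore not measurable from these tables.

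MALAT1 (chromosome 11, 65497688 to 65506516, GRCh38, plus strand), whose start lies 52147 bases beyond the end of NEAT1, was not called. Its level was 2105 and 3199 CPM in parental cells and 3072 and 3486 CPM in the knockout. Parental replicate 1 was low and the other 3 libraries were close, so the groups overlapped: parental replicate 2 lay above knockout replicate 1. The means were 2652 ± 774 and 3279 ± 292 CPM (SD, n = 2), and the log2 fold change was 0.31 (SE 0.17, edgeR adjusted p = 0.470). Without parental replicate 2 it was called, with a log2 fold change of 0.64 (edgeR adjusted p = 5.39e-10), in a fit of 1 parental library that is assumed to vary like the knockout pair and that called 9.27% of 19693 genes. Without parental replicate 1 the log2 fold change was 0.03. NEAT1 and MALAT1 were both higher in parental replicate 2 than in replicate 1, by 2.24-fold and 1.52-fold, as was DAZAP1 (1.18-fold), while the other 6 members had 0.711 to 0.939 of the replicate 1 level. Parental replicate 2 is also the library with the shortest fragments and the largest TPM share of short transcripts, and the part of these in its levels was not tested. There were 37.2 and 25.3 MALAT1 reads for each NEAT1 read in the parental libraries, against 475 and 562 in the knockout.

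MALAT1 reads were also mainly on its long transcript. MALAT1-202 (8708 bases) held 96.5 to 97.1% of MALAT1 reads in the 4 libraries but 49.8 to 54.3% of its TPM, the rest going to short transcripts. The largest of these were MALAT1-214 (424 bases; 111, 114, 188 and 227 TPM in the library order above) and MALAT1-215 (794 bases in the tables against 5340 in v29; 35.1, 30.1, 66.8 and 72.4 TPM). In all, 10 short MALAT1 transcripts held reads, 1145 to 2069 a library together. Of the 31-base words of MALAT1-214, 93.1% occur in MALAT1-202, so how the reads were divided between them rests on the quantification. MALAT1-202 had a log2 fold change of 0.32 (SE 0.23), MALAT1-214 of 0.37 (SE 0.23) and MALAT1-215 of 0.66 (SE 0.15), each with an edgeR adjusted p of at least 0.604. The other 8, MALAT1-205 and MALAT1-201 the highest of them, had at most 11.4 CPM in any library. The antisense gene AP000769.2, whose exons overlap MALAT1 on the opposite strand, was listed at 0 reads in all libraries.

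The 3 DBHS proteins did not pass the test. NONO (chromosome X, 71283192 to 71301168) read 572 and 538 CPM in parental cells and 500 and 445 CPM in the knockout, lower in both knockout libraries, with a log2 fold change of -0.23 (SE 0.11, edgeR adjusted p = 0.404). SFPQ (chromosome 1, 35176378 to 35193148) read 623, 498, 647 and 545 CPM, with replicate 1 above replicate 2 in both groups, and a log2 fold change of 0.09 (SE 0.14, edgeR adjusted p = 0.833). PSPC1 (chromosome 13, 19674752 to 19783019) read 52.6, 43.0, 54.9 and 48.8 CPM, with overlapping groups and a log2 fold change of 0.12 (SE 0.15, edgeR adjusted p = 0.781). Of the summed TPM of the 3 genes over all transcripts, NONO made up 41.1 and 46.1% in the parental libraries, against 35.6 and 37.1% in the knockout. SFPQ made up 54.7 and 50.0%, then 59.8 and 58.1%, and PSPC1 4.2 and 3.93%, then 4.62 and 4.77%. The share of NONO was thus lower, and that of SFPQ and PSPC1 higher, in both knockout libraries, an order that 2 against 2 libraries cannot bring below an exact permutation p of 0.333 (two-sided). NONOP2, a processed copy of NONO, held 33 to 85 reads a library beside 6786 to 10091 for NONO.

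The other 4 proteins also gave no call. RBM14 (chromosome 11, 66616582 to 66627347) read 124 and 88.5 CPM in parental cells and 117 and 96.7 CPM in the knockout (log2 fold change 0.01, SE 0.18). It shares exons with the readthrough gene RBM14-RBM4, which took 97.6 to 193 reads a library beside 1117 to 2193 for RBM14. DAZAP1 (chromosome 19, 1407569 to 1435687) read 101 and 119 CPM in parental cells and 93.7 and 92.8 CPM in the knockout, lower in both knockout libraries (log2 fold change -0.23, SE 0.13). TARDBP (chromosome 1, 11012344 to 11026420) read 321, 236, 300 and 279 CPM, with both knockout libraries between the parental ones (log2 fold change 0.05, SE 0.15). NUDT21 (chromosome 16, 56429133 to 56452199) read 241, 202, 232 and 217 CPM, again between the parental ones (log2 fold change 0.02, SE 0.13). Their edgeR adjusted p-values were 0.994, 0.469, 0.916 and 0.972 in this order. A missed threshold does not show equal levels: each of these errors leaves room for a small difference in either direction. Of the 8 members other than NEAT1, NONO and DAZAP1 were below both parental libraries in both knockout libraries, and none was above both; of all genes tested, 22.7% were below and 23.5% above.

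**Figure D2:**
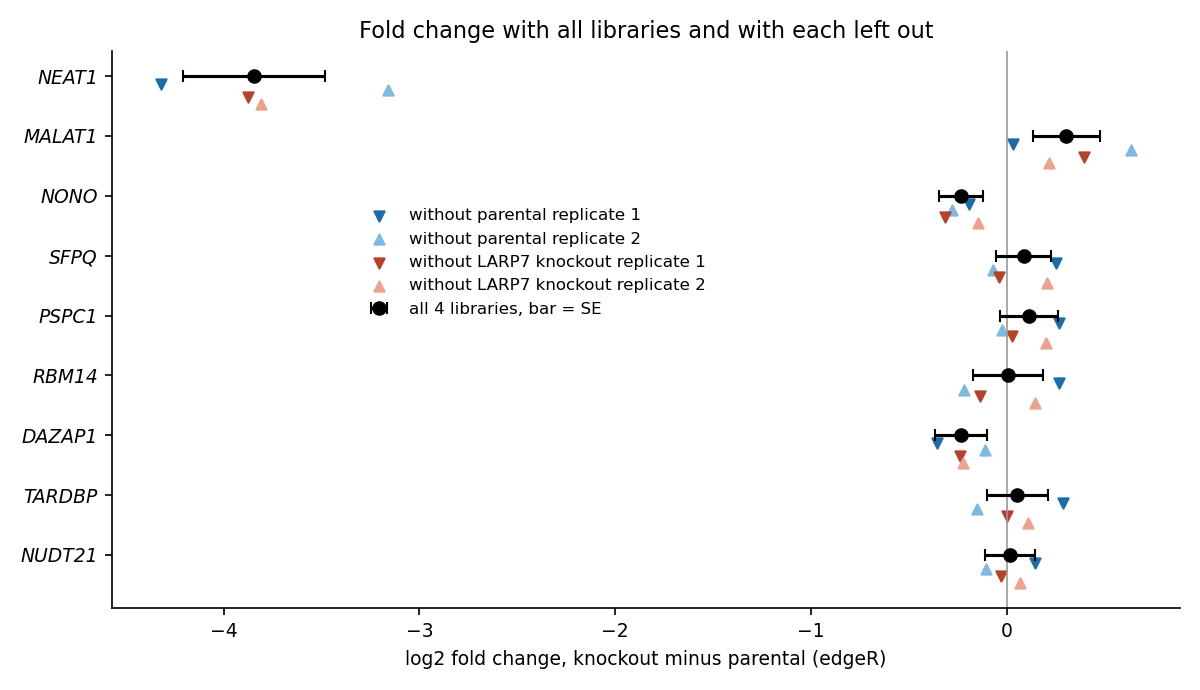
log2 fold change (knockout minus parental, edgeR) of each gene with all 4 libraries (black, bar = SE) and with each library left out (triangles). NEAT1 stays between -4.32 and -3.16, MALAT1 moves from 0.03 to 0.64 between leaving out parental replicate 1 and 2, and the 7 protein genes lie between -0.36 and 0.29.

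The choice of library decided the sign of 5 protein genes. SFPQ, PSPC1, RBM14, TARDBP and NUDT21 had a log2 fold change above 0 with all libraries and below 0 without parental replicate 2, at -0.07, -0.02, -0.22, -0.15 and -0.11. NONO (-0.32 to -0.15) and DAZAP1 (-0.36 to -0.11) kept their sign whichever library was left out. None of the 7 proteins was called in any of these 4 fits.

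The transcripts of the 7 proteins were then taken apart. NONO has its TPM on NONO-202 (46.0, 44.8, 35.6 and 43.7% in the library order above) and NONO-201 (31.9, 30.4, 43.5 and 36.4%), both protein coding. SFPQ differs from the rest: its protein-coding transcript SFPQ-201 held only 33.1 to 35.0% of its TPM, and the 874-base SFPQ-206, annotated as a target of nonsense-mediated decay, held 41.0 to 45.8%. On the read scale SFPQ-201 was the larger, with 428, 328, 444 and 374 CPM against 99.7, 75.4, 112 and 92.5 CPM for SFPQ-206. TARDBP, which limits its own mRNA through splicing in its last exon, spread over TARDBP-201, TARDBP-202, TARDBP-224 and TARDBP-228, of which TARDBP-224, annotated as a target of nonsense-mediated decay, held 26.9 to 29.8%. NUDT21 had the largest share of TPM in protein-coding transcripts, 90.1 to 93.7%, mainly the 4436-base NUDT21-201 (59.9 to 70.1%).

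Minor transcripts varied widely between libraries of a group. DAZAP1 transcripts with a retained intron made up 15.7 and 34.3% of its TPM in the parental libraries, against 21.0 and 28.9% in the knockout. The range of the parental pair covered the knockout pair. RBM14-201, the main 1 of 5 protein-coding transcripts of RBM14, held 80.8, 75.6, 87.2 and 84.4% of its TPM, higher in both knockout libraries. For PSPC1, the protein-coding PSPC1-201 held 63.9 and 66.0% in the parental libraries, against 44.7 and 37.4% in the knockout. A second coding transcript, PSPC1-206, held 9.72 and 0%, then 24.5 and 34.2%. Summed over coding transcripts, PSPC1 stood at 73.6, 66.0, 69.2 and 71.6%, with overlapping groups.

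**Figure D3:**
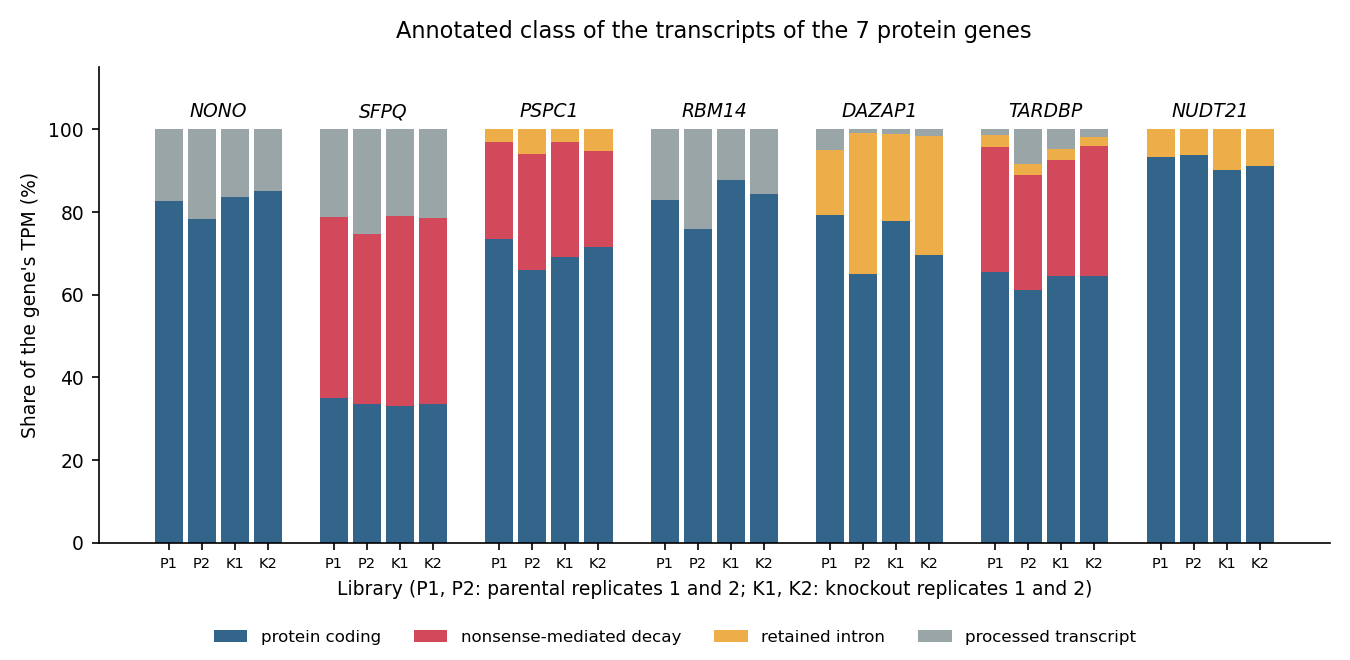
Share of each protein gene's TPM (%) by the GENCODE v29 class of its transcripts, in parental replicates 1 and 2 (P1, P2) and knockout replicates 1 and 2 (K1, K2). SFPQ has the smallest protein-coding share (33.1 to 35.0%) and NUDT21 the largest (90.1 to 93.7%), and retained-intron transcripts of DAZAP1 range from 15.7 to 34.3%.

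None of these differences in transcripts passed a test with edgeR. Of 54400 transcripts tested, edgeR called 0 (0%) at an adjusted p under 0.05, with 3420 (6.29%) at an unadjusted p under 0.05. Among the 48 tested transcripts of the members other than NEAT1, 3 were at an unadjusted p under 0.05: MALAT1-215, NONO-202 and NONO-211. DESeq2 called 775 of 50181 transcripts (1.54%), among them NONO-202, at 286 and 273 CPM in parental cells and 192 and 211 CPM in the knockout (log2 fold change -0.46, SE 0.11, edgeR adjusted p = 0.604, DESeq2 adjusted p = 0.00967). Shares within a gene were tested for transcripts with at least 10 reads and 5% of their gene's reads in 2 libraries. This covered 2 transcripts of NONO, 3 of SFPQ, 5 of PSPC1, 4 of DAZAP1 and 4 of TARDBP, and left out NONO-211. None of these genes was called (edgeR diffSpliceDGE adjusted p = 1 for each, unadjusted Simes p from 0.344 to 0.972), while 65 of 9517 genes (0.683%) were. PSPC1-206 had an unadjusted p of 0.0697. NEAT1, MALAT1, RBM14 and NUDT21 had no second transcript with 5% of the gene's reads in 2 libraries, so their shares were not tested. By TPM some second transcripts were larger: MALAT1-214 held 29.98 to 34.73%, NUDT21-204 20.05 to 31.13% and RBM14-208 9.34 to 21.83%.

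Proteins and RNAs that share a body or a processing step with the members were read from 6 lists. The lists cover 110 tested genes, and edgeR called 0 of them (0.833% of all genes). At an unadjusted p under 0.05 the whole table had 2635 of 18484 genes, and DESeq2 called 5 of 109 listed genes beside 463 of 15258 genes (3.03%). The calls depended on single parental libraries: without parental replicate 1, edgeR called 26 of the 110 (19 rose and 7 fell) beside 11.4% of all genes, and without parental replicate 2 it called 14 of 111 (1 rose and 13 fell) beside 9.27%. Leaving out knockout replicate 1 or 2 gave 1 call each, ZC3H6. The directions were thus opposite for the 2 parental libraries, and the median log2 fold change of the listed genes was 0.10 without replicate 1 and -0.07 without replicate 2 (0.01 for all genes in both).

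Of 35 other paraspeckle proteins, 34 were tested and none passed; CELF6 was too low. Their median log2 fold change was 0.03 (0.00 for all genes), with 21 above and 13 below 0. At an unadjusted p under 0.05 were 5 of the 34, beside 2635 of 18484 over all genes, and nothing is read from this count. TAF15, a FET-family RNA-binding protein, read 119 and 147 CPM in parental cells and 94.4 and 85.9 CPM in the knockout (log2 fold change -0.56, SE 0.14, edgeR adjusted p = 0.138, DESeq2 adjusted p = 0.0296). ZNF24, a zinc finger transcription factor, read 292, 261, 211 and 186 CPM (-0.48, SE 0.13, edgeR adjusted p = 0.144, DESeq2 adjusted p = 0.0377). RBM7, of the complex that feeds nuclear RNA to the exosome, read 39.9, 35.6, 49.0 and 48.0 CPM. The cold-inducible CIRBP, named after its value was seen, read 94.4, 120, 84.2 and 83.7 CPM. ZC3H6, a zinc finger protein, read 6.86, 30.1, 4.89 and 6.67 CPM, so that parental replicate 2 alone set it apart (log2 fold change -1.66, SE 0.57).

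Among 20 nuclear speckle scaffold and splicing proteins, none passed, 10 were above and 10 below 0, and the median log2 fold change was 0.01. At an unadjusted p under 0.05 were 3 of the 20, beside 2635 of 18484 over all genes, and nothing is read from this count. These 3 were lower in both knockout libraries. SRRM1, a splicing coactivator, read 343, 298, 267 and 237 CPM, PNN (pinin) 501, 507, 415 and 395 CPM, and the SR protein SRSF5 221, 237, 189 and 190 CPM. Their log2 fold changes were -0.35, -0.32 and -0.27, with edgeR adjusted p-values of 0.275, 0.235 and 0.333. U2AF1, which reads the 3' splice site, had -0.27.

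Of 18 cleavage and polyadenylation factors, the machinery that ends the short NEAT1 form, none passed, with 11 above and 7 below 0 and a median of 0.03. CPSF1, the scaffold of the cleavage complex, came closest at 95.9 and 96.2 CPM in parental cells and 62.9 and 60.0 CPM in the knockout. The libraries of each group lay close together, and the log2 fold change was -0.64 (SE 0.12, edgeR adjusted p = 0.053, DESeq2 adjusted p = 0.00327). edgeR called it with no filter (beside 2.6% of all genes) and with at least 10 reads in every library (0.859%). It did not call it with RLE factors, library size alone or the length offset, nor did limma voom (adjusted p = 0.0516). With 1 library left out, CPSF1 was called or not depending on the library. SYMPK (symplekin, another scaffold) read 81.4, 83.4, 65.7 and 69.0 CPM (-0.29). CPSF6, the partner of NUDT21 in cleavage factor I, read 315, 290, 263 and 253 CPM (-0.23), and CLP1, an RNA kinase, 10.8, 8.71, 14.9 and 12.3 CPM (0.47); for these 3 the edgeR adjusted p was at least 0.323.

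Of 14 factors of the MALAT1 type of end, 13 were tested and none passed, with 8 above and 5 below 0 and a median of 0.05. RPPH1, the RNA of RNase P, is listed at 0 in every library, as is RN7SK, the gene of 7SK RNA. The reason was not tested, and a value of 0 here does not show that the RNA was absent from the cells. The protein subunit RPP14 read 70.0, 67.9, 50.6 and 52.9 CPM (log2 fold change -0.42, SE 0.12, edgeR adjusted p = 0.178). TRNT1, the enzyme that adds CCA to tRNA ends, read 35.5, 30.2, 21.5 and 25.9 CPM (-0.47, SE 0.17, edgeR adjusted p = 0.275). The subunits RPP30 (0.22) and RPP40 (0.53) had overlapping groups.

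Of 15 genes in the list of other nuclear long non-coding RNAs, 12 were tested and none passed. Of these 12, 6 lay on each side of 0, and the median was 0.00. Where these RNAs lie in the cell was not measured, so the name of the list is not a result. MEG3 and LINC00667 are listed at 0 in every library, and CYTOR was under 1 CPM in every library. MIR17HG, host of the miR-17 cluster, came closest, at 216 and 181 CPM in parental cells and 123 and 126 CPM in the knockout (log2 fold change -0.68, SE 0.13, edgeR adjusted p = 0.0602, limma voom adjusted p = 0.0496, DESeq2 adjusted p = 0.000913). PVT1 (-0.43), DANCR (-0.22) and LINC-PINT (0.27) had edgeR adjusted p-values of at least 0.419.

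Of 15 regulators of NEAT1 transcription, all were tested and none passed, with 8 above and 7 below 0 and a median of 0.02. HIF1A, the oxygen-regulated factor, read 164 and 124 CPM in parental cells and 218 and 220 CPM in the knockout, above both parental libraries (log2 fold change 0.60, SE 0.15, edgeR adjusted p = 0.132, DESeq2 adjusted p = 0.0148). HSF1, the heat shock factor, read 60.2, 51.2, 42.1 and 34.7 CPM (-0.54, SE 0.15, edgeR adjusted p = 0.175). NFKB1 had 0.37, and POU5F1, with means of 1.35 and 0.617 CPM, had -1.11.

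**Figure D4:**
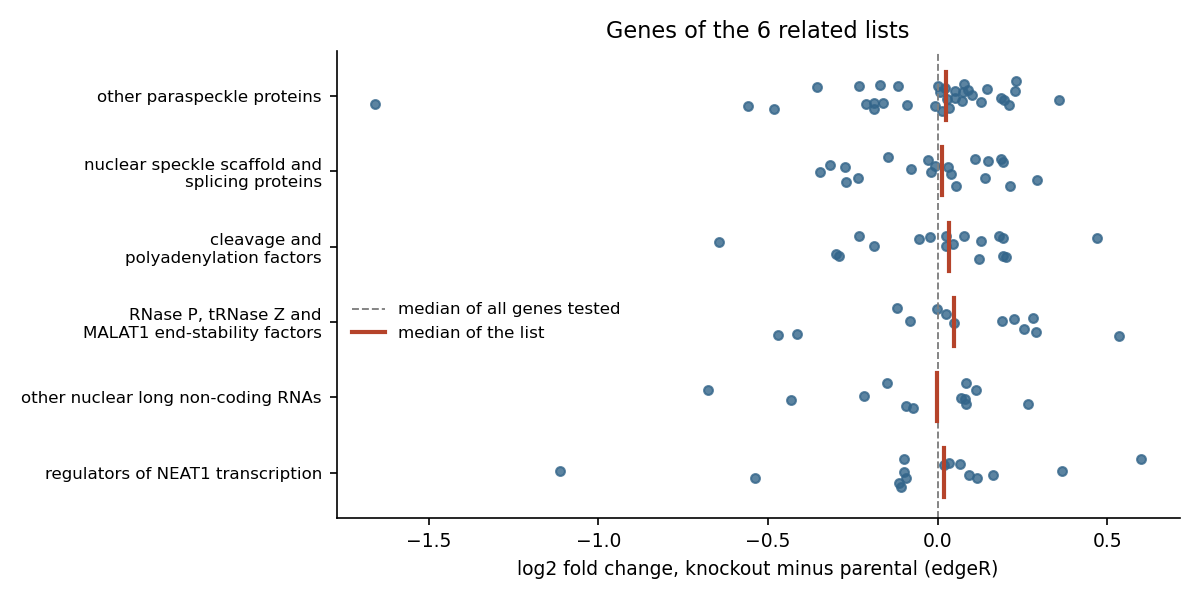
log2 fold change (knockout minus parental, edgeR) of every tested gene of the 6 lists (points), the median of each list (red bar) and the median of all genes tested (dashed line). The list medians lie between 0.00 and 0.05, and no gene of the lists passed the test.

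The genes around NEAT1 were read next, because NEAT1 and MALAT1 lie 52147 bases apart on the same strand. Within 500 kb of either gene, 92 genes are annotated, 49 were tested, and 35 neighbours had an average log2 CPM of at least 2. edgeR called none of the 35 (0.833% of all genes), nor did DESeq2, and 3 were at an unadjusted p under 0.05 (2635 of 18484 over all genes). Of the 35, 19 were above and 16 below 0, with a median log2 fold change of 0.02 and a range from -0.66 to 0.42. The gene before NEAT1, FRMD8, started 36.2 kb upstream and read 16.7, 13.3, 18.8 and 14.1 CPM (log2 fold change 0.13, SE 0.22). The 3 with the smallest p lay further away and were lower in both knockout libraries. PCNX3 (-0.42) started 193 kb downstream, and ZFPL1 (-0.66) and ARL2 (-0.54) started 339 and 409 kb upstream, with edgeR adjusted p-values of 0.186, 0.294 and 0.207. RELA, a subunit of NF-kappaB that is also in the list of NEAT1 regulators, started 240 kb downstream and had 0.16.

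**Figure D5:**
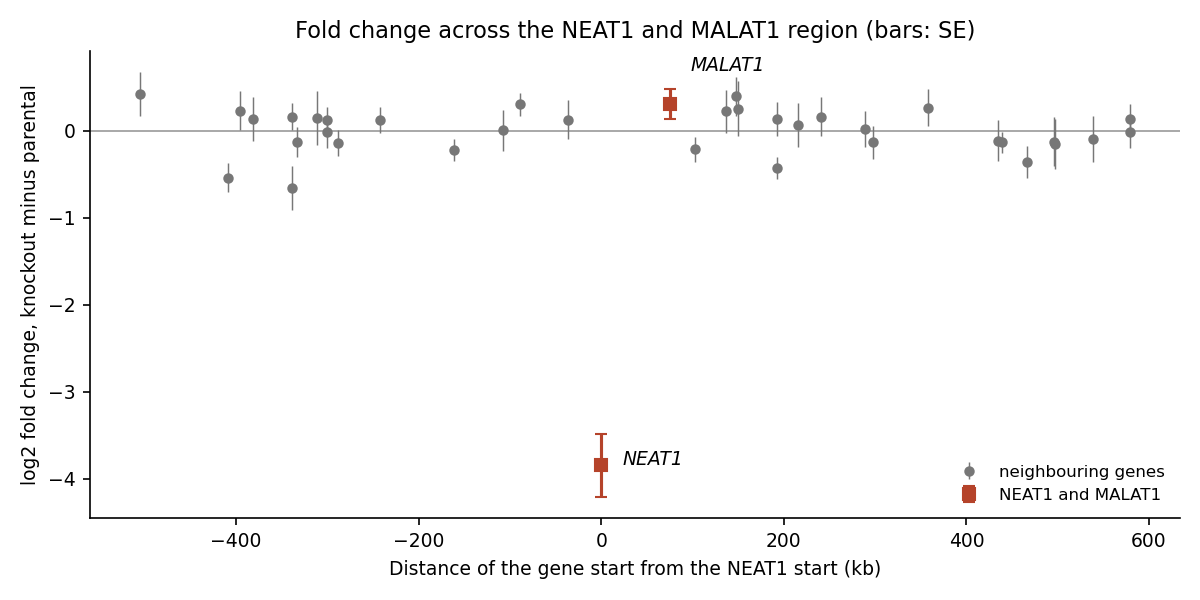
log2 fold change (knockout minus parental, edgeR; bars are SE) of NEAT1, MALAT1 and the 35 neighbouring genes against the distance of their start from the NEAT1 start in kb. NEAT1 lies at -3.85, and all neighbours lie between -0.66 and 0.42.

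Finally, genes with the profile most like that of NEAT1 and MALAT1 were ranked by the Euclidean distance between log2 CPM values over the 4 libraries, each gene centred on its own mean. Among 11813 genes ranked, the median distance from NEAT1 was 3.86 and the 5 nearest were TSC22D3, ADGRL3, NEFM, CHAC1 and SLC7A11, at 0.63, 0.90, 0.96, 1.79 and 1.90. TSC22D3, the glucocorticoid-induced leucine zipper protein, read 24.7 and 83.0 CPM in parental cells and 4.25 and 4.90 CPM in the knockout. Like NEAT1, it was highest in parental replicate 2 and low in both knockout libraries. ADGRL3, the adhesion receptor latrophilin-3, read 16.3, 20.4, 0.990 and 0.708 CPM, and NEFM, a neurofilament gene that is also 1 of the 8 HEK293 markers, had the values given with those markers. SLC7A11, the cystine transporter, read 117, 223, 42.6 and 47.9 CPM, and CHAC1, which degrades glutathione, 2.78, 18.7, 1.22 and 1.53 CPM. In CHAC1 parental replicate 1 lay near the knockout level, which it did not in NEAT1.

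Around MALAT1 the median distance was 0.677 and the nearest genes were far closer: HACE1, ITGA1, FN1, C1orf74 and NLGN1, at 0.02, 0.04, 0.05, 0.05 and 0.06. HACE1, a ubiquitin ligase, read 39.5, 60.6, 58.3 and 65.2 CPM, and fibronectin FN1 50.7, 79.5, 77.3 and 86.2 CPM. Both were low in parental replicate 1 and similar in the other 3 libraries, as MALAT1 was. The integrin ITGA1, the adhesion protein NLGN1 and C1orf74 had log2 fold changes of 0.31, 0.25 and 0.36. These likenesses rest on 4 points that share their libraries and depth, and they are descriptions without a test.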

How the data were processed

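Per the file headers, the deposited tables give for every transcript a Salmon estimated count (reads assigned, not whole), a TPM (abundance per length, scaled to a fixed total) and the effective length. The authors made these estimated counts and TPM values, as far as the headers show, with Salmon 1.6; the submitters' processing notes also name STAR 2.5.3a, cutadapt 1.6, edgeR 3.24.3, SAMtools 1.3.1, R and Picard, and the build hg38. The annotation release is not given in the sources used here, nor is the strand setting. Per the labels, TRIzol RNA went into Ovation SoLo libraries. Without a known strand setting, sense and antisense reads cannot be told apart.

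Transcripts were matched to GENCODE v29: 197318 of 198002 by identifier, the rest holding 0.0631 to 0.0711% of reads. Of the matched ones 98.4% had their v29 length. For symbols with 2 entries (MATR3, LINC-PINT) the entry with more reads was used. Estimated counts were summed per gene, rounded, filtered with filterByExpr, scaled with TMM factors and tested with edgeR 4.0.16 (quasi-likelihood F test, knockout minus parental) in R 4.3.3, with Benjamini-Hochberg adjustment over all genes and a threshold of 0.05. Transcripts were tested in the same way. Shares within genes were tested with diffSpliceDGE for transcripts of at least 10 reads and 5% of their gene's reads in 2 libraries. The SE is the log2 fold change over the root of F. Alternatives were DESeq2 1.42.0, limma 3.58.1 voom, other scalings and filters, a length offset, the replicate number as a block, and fits that leave out 1 library. The gene, transcript and share tests were tested on simulated data. Assignment error of Salmon is not in the tests.

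The members, the lists and the tests were chosen with earlier results of these data known. Named were the 9 members, in each list the called genes and up to 4 others with the smallest p, and the 5 genes nearest to NEAT1 and to MALAT1. Open to naming were NEAT1 and MALAT1 transcripts with reads, and other member transcripts with at least 5% of their gene's TPM in 2 libraries. Also open were the neighbours within 500 kb of average log2 CPM of at least 2. Not all of these transcripts and neighbours are given above. Any other tested gene of the lists is said to be named after its value was seen.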

Additional observations from a re-analysis of the deposited data

How the results depend on the processing

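None of the 8 members other than NEAT1 was called with all libraries and no block, whatever the scaling, filter, offset or tool. Counting NEAT1, whose difference chose it and from which nothing is read, leaving out each library gave 1 to 2 called members, the second being MALAT1 without parental replicate 2. The 110 tested genes of the 6 lists gave 0 calls with edgeR and with RLE factors, library size alone and the length offset. With no filter 6 of 112 were called beside 2.65% of all genes, with at least 10 reads in every library 1 of 109 (0.859%), with DESeq2 5 of 109 (3.03%), with limma voom 1 of 110 (0.812%) and with each library left out 1 to 26 of 110 or 111 (1.01 to 11.4%). Transcript tests of the members gave 0 calls in every edgeR setting with all 4 libraries, beside 0 of 54400 transcripts in the fit given above. DESeq2 called NONO-202, beside 1.54% of 50181 transcripts. It also called NEAT1-202, from which nothing is read because the fall of NEAT1 chose it. Tests of transcript shares gave 0 member calls in every setting with all 4 libraries. In the fit given above they called 0.683% of 9517 genes, so nothing is read from this count. The log2 ratio of the entries NEAT1-202 and MALAT1-202, which also take reads of shorter forms, was -3.42 and 0.73 in TPM, -3.88 and 0.30 with reads scaled by TMM factors, and -3.78 to -2.95 and 0.60 to 0.87 with each library left out. With the length offset the log2 fold changes of RBM14 and TARDBP were -0.103 and -0.013, below 0, and the cause was not tested. With each library left out the log2 fold changes ranged from -0.067 to 0.253 for SFPQ, -0.023 to 0.266 for PSPC1, -0.22 to 0.27 for RBM14, -0.15 to 0.29 for TARDBP and -0.11 to 0.15 for NUDT21, each changing sign.

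The replicate numbers of the 2 groups are a shared label only: deviations of same-numbered libraries had a correlation of 0.122 over 18484 genes, from 2 pairs. With the replicate block, 1656 of 18484 genes were called (8.96%), with 2 members (NEAT1 and MALAT1, the latter with a log2 fold change of 0.33 and an edgeR adjusted p of 0.00077) and 9 genes of the lists, and 0 member transcripts and 0 shares. With 105 to 111 NEAT1 reads in each knockout library, depth limits what can be said of its transcripts there.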
